A study of Mus musculus with 2 samples.

Results

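The motor neuron homeobox factors are the 6 transcription factor genes Mnx1, Isl1, Isl2, Lhx1, Lhx3 and Lhx4. Accessible regions were assigned to them by position alone: an interval of the deposited table was taken if the protein-coding transcription start site (TSS) nearest to it, in the GENCODE annotation of the mouse assembly mm10, was that of 1 of these genes. This gave 87 of 119502 intervals, of which 7 belonged to Mnx1, 26 to Isl1, 11 to Isl2, 19 to Lhx1, 11 to Lhx3 and 13 to Lhx4. The rule uses position and no count, although the genes themselves were picked with earlier results of these data known.

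The data are from ATAC-seq, in which the transposase Tn5 cuts and tags open chromatin, so that the fragment count of a region measures how accessible it was. Live cells positive for the red fluorescent protein mKate2 were sorted from an Olig2-2A-mKate2 mouse ES cell line at day 5 of differentiation towards spinal cord, after exposure to 100 nM SAG, an agonist of Sonic hedgehog (Shh) signaling, and 100 nM retinoic acid (RA), with 50000 cells per transposition. The single group, LIVE_ATAC, had 2 replicate libraries, and the labels do not say whether they came from separate cultures, so all errors below are the spread between these 2 libraries. There was no other condition, and no effect of SAG or of any cell type can be read from these values. The study states that cells sorted by the reporter also comprise newly born motor neurons and some cells with NKX2.2, and the share of each cell type behind a count is not known.

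Isl1, Isl2, Lhx1, Lhx3 and Lhx4 encode LIM homeodomain factors, which carry a pair of LIM zinc fingers for contacts with cofactors such as LDB1 and a homeodomain that binds DNA. MNX1 (also called HB9) has a homeodomain without LIM fingers. In the developing spinal cord ISL1 and LHX3 act together with LDB1 to switch on motor neuron genes, LHX4 overlaps with LHX3 in early motor neurons and V2 interneurons, ISL2 and MNX1 mark motor neurons after they leave the cell cycle, and LHX1 marks a set of limb-innervating motor neurons and several interneuron classes. Olig2-expressing progenitors (pMN) are the cells from which motor neurons arise.

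RefSeq promoters of Isl2, Isl1, Lhx4 and Lhx3 are shown first, among them those of the most and the least accessible start interval. Accessibility of single intervals is ranked here and below by normalised counts per kb. RefSeq windows for GRCm38.p6, the assembly named mm10 by the authors, matched all 6 genes, and the bases directly before the start are given 5′ to 3′ on the strand of the gene. Capitals mark matches on either strand to the motifs searched. Among these were the homeodomain core TAATTA, the E-box CAGCTG and a second E-box with the letters CAGATG. The others were the GLI site GACCACCCA, the SOX core ACAATG, the ONECUT site AATCAATA and a retinoic acid receptor repeat described below. The Isl2 window lies at chr9:55540899-55541148 on the plus strand, inside the most accessible of the 87 intervals, and its only match is CATTGT, the reverse complement of ACAATG. The Isl1 window lies at chr13:116309689-116309938 on the minus strand and holds CAGCTG. The Lhx4 window, at chr1:155742028-155742277, and the Lhx3 window, at chr2:26208250-26208499, are both on the minus strand and hold no match. These 4 windows lay wholly inside an interval. The start of the Lhx4 gene record, at 883 normalised counts per kb, was denser than the Lhx4 region shown, at 633. It is not printed, and the 300 bases at its centre hold CAGCTG. The window of the other RefSeq start of Lhx3, at chr2:26206576-26206825 on the minus strand, belongs to the least accessible start interval, which held 228 of its 250 bases, and it holds CATCTG, the reverse complement of CAGATG.
Isl2 promoter: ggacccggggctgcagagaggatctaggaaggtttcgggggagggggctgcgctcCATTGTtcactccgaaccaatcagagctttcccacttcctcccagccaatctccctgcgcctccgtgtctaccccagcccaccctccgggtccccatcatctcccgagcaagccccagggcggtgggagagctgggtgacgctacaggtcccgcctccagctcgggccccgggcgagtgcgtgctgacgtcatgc
Isl1 promoter: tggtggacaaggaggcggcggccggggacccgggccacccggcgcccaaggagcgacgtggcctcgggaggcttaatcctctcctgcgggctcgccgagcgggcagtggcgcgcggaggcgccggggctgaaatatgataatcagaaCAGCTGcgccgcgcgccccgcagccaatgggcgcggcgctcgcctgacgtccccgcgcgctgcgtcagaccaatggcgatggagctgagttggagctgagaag
Lhx4 promoter: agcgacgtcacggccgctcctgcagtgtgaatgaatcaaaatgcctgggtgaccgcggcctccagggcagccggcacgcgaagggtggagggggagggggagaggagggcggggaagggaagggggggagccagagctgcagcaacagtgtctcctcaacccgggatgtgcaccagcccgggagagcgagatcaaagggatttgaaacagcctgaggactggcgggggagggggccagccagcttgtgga
Lhx3 promoter: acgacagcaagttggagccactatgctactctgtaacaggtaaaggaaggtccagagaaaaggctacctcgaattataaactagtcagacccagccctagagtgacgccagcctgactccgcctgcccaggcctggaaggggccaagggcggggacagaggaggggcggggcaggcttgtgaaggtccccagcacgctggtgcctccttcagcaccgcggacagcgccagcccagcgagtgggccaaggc
Lhx3 other promoter: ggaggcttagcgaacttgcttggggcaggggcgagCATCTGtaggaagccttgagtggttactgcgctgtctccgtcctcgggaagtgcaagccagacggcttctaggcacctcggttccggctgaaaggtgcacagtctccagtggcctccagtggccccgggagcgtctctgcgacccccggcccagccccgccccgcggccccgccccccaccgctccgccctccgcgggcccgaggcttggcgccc

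A second set shows regions away from starts, each as the 300 bases at the centre of an interval, on the plus strand. The Isl1 far element is an interval of 251 bp, so its window reaches past both ends. The Mnx1 downstream element, chr5:29467969-29468268, was the most accessible of the 78 intervals that covered no protein-coding start, and is rich in CpG. The Isl1 far element, chr13:116025938-116026237, had the highest density per kb of the Isl1 regions away from its start and holds no match. By counts it stood lower, with a mean normalised count of 143 beside 346 for the interval 15.4 kb downstream of the start. The other 3 windows were chosen after their values were seen, for their matches: the Isl1 upstream element, chr13:116489375-116489674, holds 3 copies of TAATTA, more than any other of the 87, the Isl1 downstream element, chr13:115977359-115977658, holds 3 copies of CAGATG, and the Lhx4 intron element, chr1:155718891-155719190, holds 7 matches, among them 3 of CAGCTG and the only GACCACCCA of the set.
Mnx1 downstream element: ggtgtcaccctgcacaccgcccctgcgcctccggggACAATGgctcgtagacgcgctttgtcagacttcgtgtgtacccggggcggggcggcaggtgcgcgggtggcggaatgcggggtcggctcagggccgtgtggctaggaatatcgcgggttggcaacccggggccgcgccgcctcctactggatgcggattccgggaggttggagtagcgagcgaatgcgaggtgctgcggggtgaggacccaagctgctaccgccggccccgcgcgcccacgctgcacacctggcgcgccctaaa
Isl1 far element: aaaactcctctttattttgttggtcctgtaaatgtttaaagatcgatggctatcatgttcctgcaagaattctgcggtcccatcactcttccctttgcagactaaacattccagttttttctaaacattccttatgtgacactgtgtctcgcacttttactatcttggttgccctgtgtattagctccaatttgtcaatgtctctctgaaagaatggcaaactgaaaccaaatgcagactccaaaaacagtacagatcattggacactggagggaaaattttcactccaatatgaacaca
Isl1 upstream element: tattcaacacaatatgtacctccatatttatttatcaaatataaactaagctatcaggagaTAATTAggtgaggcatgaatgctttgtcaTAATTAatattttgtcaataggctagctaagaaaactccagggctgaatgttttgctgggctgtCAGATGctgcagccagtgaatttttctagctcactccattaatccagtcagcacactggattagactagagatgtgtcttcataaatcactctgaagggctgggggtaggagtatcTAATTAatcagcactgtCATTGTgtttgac
Isl1 downstream element: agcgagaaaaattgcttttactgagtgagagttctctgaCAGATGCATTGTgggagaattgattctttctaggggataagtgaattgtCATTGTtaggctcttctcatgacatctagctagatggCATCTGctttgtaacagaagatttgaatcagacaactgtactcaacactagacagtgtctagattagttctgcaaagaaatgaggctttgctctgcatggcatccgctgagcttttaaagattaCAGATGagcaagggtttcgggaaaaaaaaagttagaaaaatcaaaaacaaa
Lhx4 intron element: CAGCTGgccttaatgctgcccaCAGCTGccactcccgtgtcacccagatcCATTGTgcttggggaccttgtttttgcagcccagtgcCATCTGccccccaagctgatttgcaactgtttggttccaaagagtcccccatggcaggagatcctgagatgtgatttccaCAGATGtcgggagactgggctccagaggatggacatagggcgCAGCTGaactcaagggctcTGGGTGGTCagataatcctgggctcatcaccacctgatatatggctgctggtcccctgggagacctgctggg

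Replicate 1 held 31876165 counts in intervals and replicate 2 held 31672240, and a median interval had 65 and 66 counts. The 87 intervals took 19804 counts (0.0621%) in replicate 1 and 19089 (0.0603%) in replicate 2, with single intervals between 7 and 1763 counts and between 6 and 1592. Markers of cell types were read beside the labelled identity. All 4 markers of motor neuron progenitors, Olig2, Nkx6-1, Pax6 and Sox2, had an interval over the start of the gene record, at 187 to 1452 normalised counts per kb. Such an interval was present for 13480 of 21924 protein-coding genes (61.5%), so its presence alone does not show the labelled identity. Among the other markers, no interval covered any protein-coding start of Chat, a gene of mature motor neurons, of Shh, of Pou5f1 and Nanog from pluripotent cells, of Tbx6, or of Col1a1 and Col3a1 from fibroblasts. The interneuron markers Evx1, En1 and Gata3 had an interval over the start of the gene record, at 218 to 464. So did Nkx2-2 of p3 cells at 484, Slc18a3 at 300, Esrrb at 139, T at 204, Col1a2 at 123 and Tfap2a at 217. Other starts of Foxa2 and Sox10 were covered at 584 and 108. With any protein-coding start, Gata3 was at 1081, Nkx2-2 at 879, Tfap2a at 433 and Esrrb at 282. The progenitor markers were then at 613 for Pax6, 862 for Sox2, 946 for Olig2 and 1452 for Nkx6-1. The part of other cell types in the member counts was not tested.

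The first question was whether the regulatory regions of motor neuron genes were open in Olig2-expressing cells at all, and by how much. Counts were scaled by size factors, and densities are these normalised counts per kb of interval. Fragments that reach past the ends of a short interval can add to its density, and their part was not tested. A short interval can therefore rank above longer ones that hold more counts. All 6 genes had an interval over a protein-coding start, as did 14620 of 21924 protein-coding genes (66.7%). The interval set was built over 5 libraries, so the presence of an interval alone does not answer this question. The densest start interval of the 6 genes was that of Isl2, and the least dense was at Lhx3. A mean normalised count over 100 was found for 44 of the 87 intervals (50.6%), against 46369 of all 119502 (38.8%). Among distal intervals, those that did not cover the start of a gene record, 39 of 82 (47.6%) exceeded it, against 34770 of 107284 (32.4%). This cutoff is on counts per interval, and distal members were longer, with a median of 619.5 bp against 472 bp. Each median given with an error is the mean of the medians of the 2 libraries, which can come from different intervals. Per kb, the distal median was 140 ± 5.13 for members, against 126 ± 2.05. Without intervals over any protein-coding start it was 127 ± 3.26, against 124 ± 2.01. By gene, 6 of 7 intervals of Mnx1 were over 100, 8 of 26 of Isl1, 6 of 11 of Isl2, 9 of 19 of Lhx1, 7 of 11 of Lhx3 and 8 of 13 of Lhx4.

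**Figure D1:**
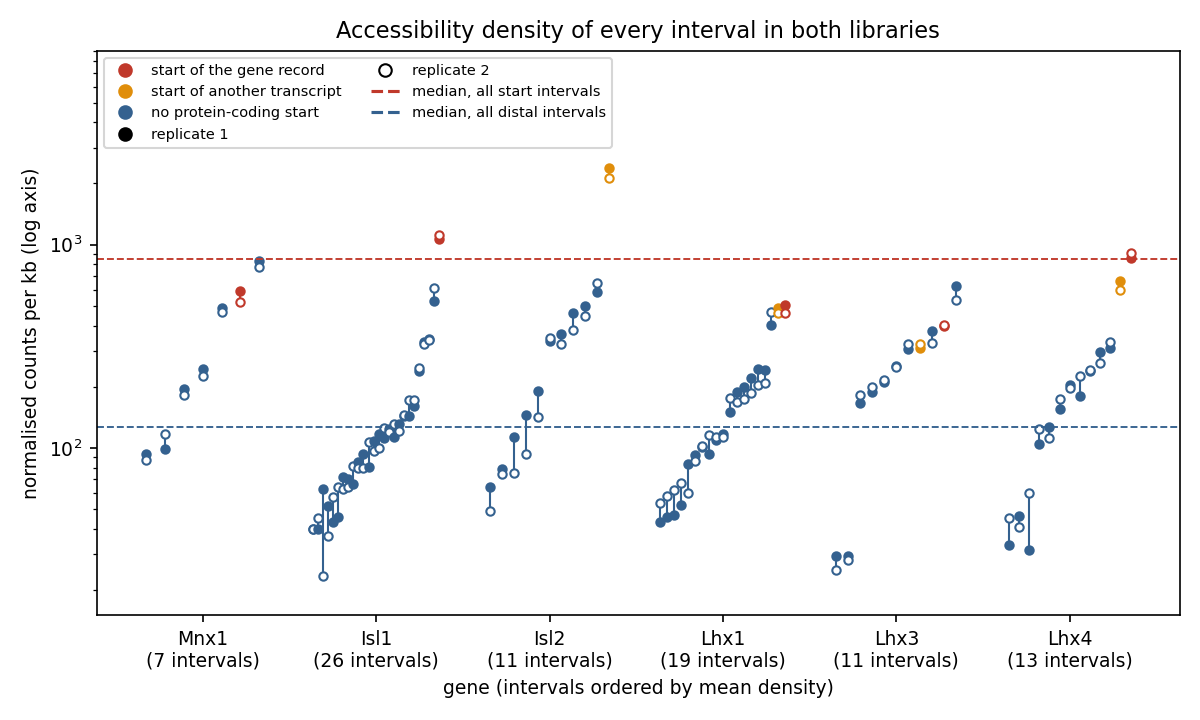
Normalised counts per kb (log axis) of each of the 87 intervals, ordered within each gene, with replicate 1 as filled and replicate 2 as open points joined by a line, and dashed lines at the medians of all start intervals (855) and all distal intervals (126) of the table. The Isl2 interval over another transcript start stands highest, at 2396 and 2139, and only it, the Isl1 start interval and the Lhx4 start interval reach the upper line.

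Isl2, a factor of postmitotic motor neurons on chromosome 9 (ENSMUSG00000032318.12, 55538672 to 55546180, plus strand), held the most accessible region of the set. The interval chr9:55540816-55541402, 587 bp long, had 1406 counts in replicate 1 and 1256 in replicate 2, or 2268 ± 182 normalised counts per kb (SD, n = 2). It lay above 99.9% of all distal intervals, a class it was in only because the Isl2 gene record starts 2.14 kb upstream, at a transcript start that no interval covered. It covered the start of another protein-coding Isl2 transcript, the RefSeq promoter printed above, and part of the antisense gene Gm17226. ATAC-seq has no strand, and the 2 genes cannot be told apart there. Downstream, within the coding exons and just past the gene, 3 further intervals had densities of 344 to 474. Away from the gene, the interval with the highest density lay 69.9 kb downstream in an intron of Scaper, at chr9:55608522-55609444. It had 539 and 599 counts, or 616 ± 45.6 per kb, above 94.1% of distal intervals, and was named after its value was seen. Scaper introns held 6 of the 11 Isl2 intervals, so their assignment rests on the Scaper start being farther away.

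Isl1, which is needed to form motor neurons, lies on chromosome 13 (ENSMUSG00000042258.13, 116298281 to 116309689, minus strand). Its start interval, chr13:116309056-116310391, had 1417 and 1488 counts, or 1087 ± 36.9 per kb, above 64.9% of all start intervals. It was the densest start interval of a gene record among the 6 genes. The remaining regions of Isl1 were unlike those of the other genes in their spread. Of its 26 intervals, 22 lay over 100 kb from the start and 14 over 200 kb, the farthest, chr13:115725314-115725632, at 584 kb with 23 and 20 counts. Close to the gene, intervals at 11.8 and 15.4 kb downstream had densities of 327 ± 4.14 and 342 ± 3.70, and the nearest, in coding sequence at 4.27 kb, had 126 ± 7.22. The Isl1 far element, 283 kb downstream and 251 bp long, had 133 and 153 counts and a density of 570 ± 56.0, above 93.3% of distal intervals, while the next interval towards the gene, at 279 kb, had 121 ± 3.08. The Isl1 upstream element at 180 kb had 104 and 108 counts, or 243 ± 6.33. Between 15.4 kb and 108 kb downstream and over the first 180 kb upstream of the start, no interval was present. Another 3 intervals lay in introns of the lincRNA gene Gm47914, at 44.1 to 102 per kb.

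Mnx1 on chromosome 5 (ENSMUSG00000001566.9, 29473034 to 29478470, minus strand) had the fewest intervals and the most compact ones, with 94.4% of its normalised counts within 10 kb of its start. The start interval, chr5:29477547-29479540, had 1184 and 1038 counts, or 557 ± 52.1 per kb, below the median of 855 over all start intervals. The Mnx1 downstream element, chr5:29467595-29468641, had 865 and 810 counts and a density of 800 ± 37.6, higher than the start in both libraries. It lay past the end of the gene, 9.83 kb from the start, above 96.2% of distal intervals. Between them, chr5:29472073-29472635 had 274 and 263 counts, or 477 ± 14.1, and the intron interval 1.73 kb from the start had 235 ± 12.8. The farthest interval, 30.5 kb upstream, had 144 and 135 counts, or 189 ± 8.71.

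Lhx4 on chromosome 1 (ENSMUSG00000026468.14, 155698031 to 155751684, minus strand) had the largest summed accessibility, 4409 ± 61.2 normalised counts, and 2 start regions made up 65.7% of it. The interval over the start of the gene record, chr1:155750537-155751917, had 1186 and 1252 counts, or 883 ± 33.3 per kb. The interval over the start of another transcript, chr1:155740730-155743381, where the RefSeq promoter lies, had 1763 and 1592 counts, the most of any member, or 633 ± 46.0 over its 2652 bp. The 2 regions differed in base composition. The ratio of observed to expected CpG, which is high in CpG islands, was 0.737 at the RefSeq start and 0.132 at the start of the gene record. Of the 13 intervals 10 overlapped Lhx4 itself. The nearest away from a start, at 4.25 kb in an intron, had 321 ± 16.7, and the farthest, 96.3 kb downstream in an intron of Acbd6, had 200 ± 5.60.

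Lhx1 on chromosome 11 (ENSMUSG00000018698.15, 84518284 to 84525535, minus strand) had 1264 and 1154 counts over its start at chr11:84523921-84526430, or 482 ± 31.3 per kb, above 25.1% of all start intervals. This interval also overlapped an exon of the lincRNA gene Lhx1os. The interval over another transcript start, chr11:84522690-84522875, had 91 and 86 counts and a density of 476 ± 19.3, so that the libraries overlapped between both starts. The other regions formed a row upstream of the gene, with 16 of the 19 intervals at 8.50 to 135 kb. The densest of these, at 41.3 kb and 146 bp long, had 59 and 68 counts, or 435 ± 43.3 (named after its value was seen), and the farthest, chr11:84660846-84662271, had 65 and 83 counts, or 51.9 ± 8.90.

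Lhx3 on chromosome 2 (ENSMUSG00000026934.15, 26200212 to 26208289, minus strand) had the lowest start density. The interval over the start of the gene record, chr2:26207597-26208765, had 463 and 469 counts, or 399 ± 3.40 per kb, above 19.8% of all start intervals. The other start, chr2:26206348-26206803, had 141 and 148 counts, or 317 ± 10.7. Both intervals also overlapped the antisense gene Gm27196, and the first an exon and UTR of the protein-coding gene Qsox2, so its counts cannot be told apart between these genes. A short intron interval of 142 bp, chr2:26205231-26205372, was denser per kb than either start, with 89 and 76 counts and 581 ± 65.1 per kb. By counts it stood below both starts. All the other intervals lay downstream of the start, up to 38.7 kb away, where chr2:26167852-26169557 had 429 and 427 counts, or 251 ± 0.974. Lhx3 also had the least accessible member, chr2:26186239-26186477, with 7 and 6 counts.

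By density over a start, the order was Isl2, Isl1, the gene record start of Lhx4, the RefSeq start of Lhx4, Mnx1, Lhx1, then Lhx3. Neighbours in this order were separated by both libraries, except the 2 starts of Lhx1. The RefSeq start of Lhx4, at 665 and 600, and Mnx1, at 594 and 520, nearly touched, with less between their nearest libraries than within either pair, and the same held for Mnx1 and the start of the Lhx1 gene record, at 504 and 460. Over all genes with an interval on the start of the gene record, 13480 of 21924 (61.5%), the median density was 884, above which lay only Isl1 among the 5 members with such an interval, with Lhx4 at 883. When the starts of all protein-coding transcripts were taken, 14620 genes (66.7%) had a start interval and their median was 853, and Isl2 and Isl1 were above it while Lhx4 was at 718 ± 18.8. By counts summed over all intervals of a gene, the order changed. Lhx4 was followed by Isl1 with 3648 ± 70.0, Lhx1 with 3228 ± 158, Isl2 with 3026 ± 169, Mnx1 with 2804 ± 178 and Lhx3 with 2333 ± 21.1 normalised counts. Lhx1 and Isl2, and Isl2 and Mnx1, were separated by less than the sum of their SDs. The starts held 44.7% of the normalised counts of the 87 intervals.

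The second question was how accessibility was laid out around each gene. The count of intervals follows in part from the rule, because a gene with distant neighbours is nearest to more of the genome. The territory of Isl1, taken as the stretch up to the midpoints with its neighbours Itga1 and Parp8, was 962 kb, larger than that of 98.4% of protein-coding genes, and the median gene had 47.6 kb. Per 100 kb of territory Isl1 had 2.70 intervals, Isl2 5.17, Lhx4 10.2, Mnx1 10.4, Lhx1 12.4 and Lhx3 19.2, beside a median of 5.71 over protein-coding genes. So Isl1 had the most intervals and the fewest per 100 kb, and Lhx3 the most per 100 kb.

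**Figure D2:**
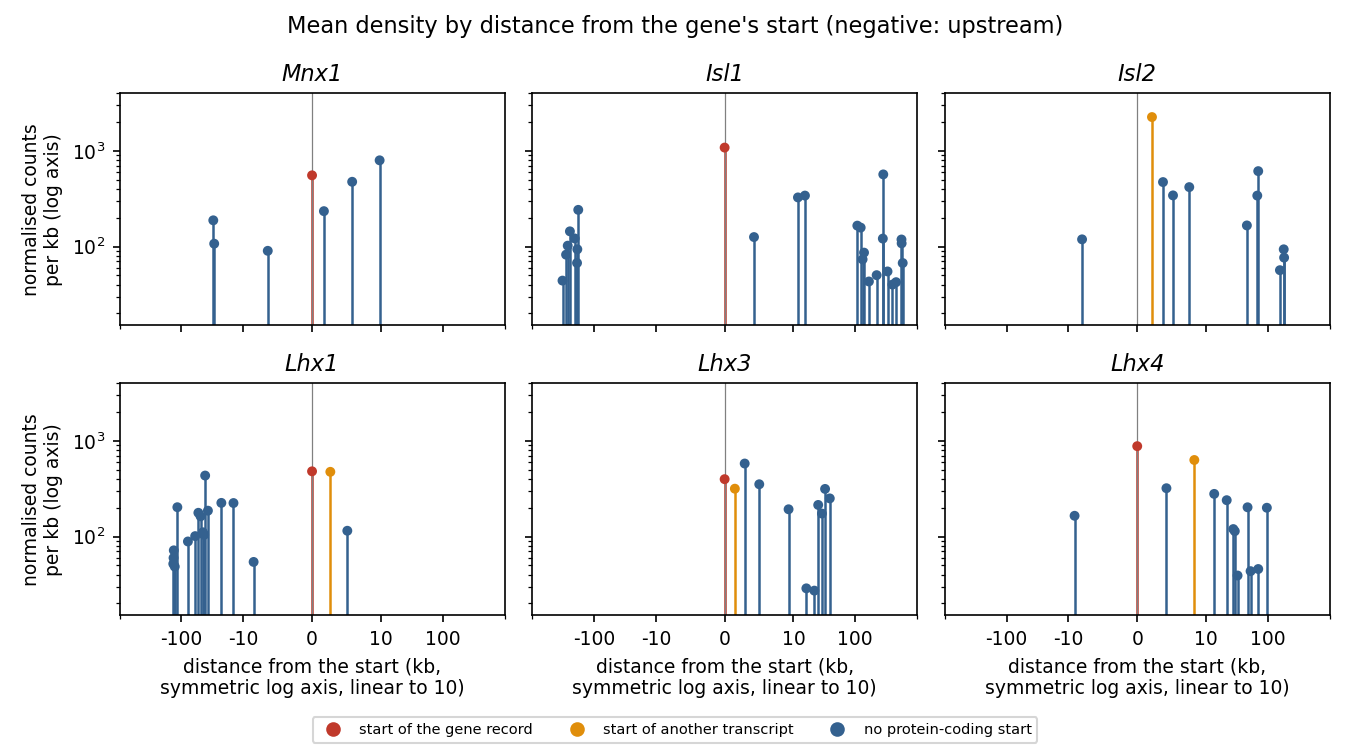
Mean normalised counts per kb (log axis) of each interval by its distance in kb from the start of the gene record (symmetric log axis, linear up to 10 kb, negative values upstream), 1 panel per gene. The intervals of Lhx1 lie mainly upstream, those of Lhx3 and Lhx4 mainly downstream, and those of Isl1 reach 584 kb.

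The median density of the members was lower at greater distance from the start, with exceptions such as the Isl1 far element, at 570 per kb, and the interval 8.50 kb upstream of Lhx1, at 54.3 per kb. Up to 10 kb from the start, 20 distal members had a median density of 332 ± 7.34 per kb, against 160 ± 0.137 for all 17353 such intervals of the table, and 4 of these 20 covered the start of another transcript. From 10 to 100 kb, 32 members had 184 ± 7.07, against 122 ± 1.68. Over 100 kb, 30 members had 79.4 ± 3.33, against 120 ± 3.08. Those 30 comprised 22 of Isl1, 5 of Lhx1 and 3 of Isl2, and 5 of them (16.7%) had a mean count over 100, against 28.8% in the table. Intervals that share a locus are not independent, and these medians are descriptions. By gene the distal median was 329 ± 8.99 for Isl2, 233 ± 1.19 for Lhx3, 212 ± 10.7 for Mnx1, 177 ± 12.2 for Lhx4, 114 ± 0.740 for Lhx1 and 104 ± 6.13 for Isl1. Over all 82 distal members it was 140 ± 5.13, beside 126 ± 2.05 for all distal intervals. By annotation, 24 of the 87 overlapped the gene they were assigned to, 13 overlapped another gene only, and 50 overlapped none. Apart from the 5 intervals over gene record starts and the 4 over other starts, 6 touched coding exons, 1 a UTR, 2 noncoding exons and 19 lay in introns only.

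The base composition of the regions, which the rule did not use, set several of them apart from typical distal intervals. A CpG ratio over 0.6 was found in 12 of the 82 distal members (14.6%), against 3.73% of all distal intervals. With the intervals over any protein-coding start left out, 8 of 78 (10.3%) had it, against 2.75% of 104632. These 8 were 3 of Isl2, 2 of Lhx1 and 1 each of Mnx1, Lhx3 and Lhx4. Around the 7 other LIM homeodomain genes 10 of 107 (9.35%) did so, around the ventral progenitor factors 15 of 255 (5.88%) and around the motor neuron programme genes 23 of 530 (4.34%). The shares of members and of the other LIM homeodomain genes were therefore close, and no test of either was made. Of the 5 gene record starts, those of Isl1 (0.799), Mnx1 (0.756) and Lhx1 (0.746) were over 0.6, and those of Lhx3 (0.292) and Lhx4 (0.132) were not, while 70.3% of all start intervals were.

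**Figure D3:**
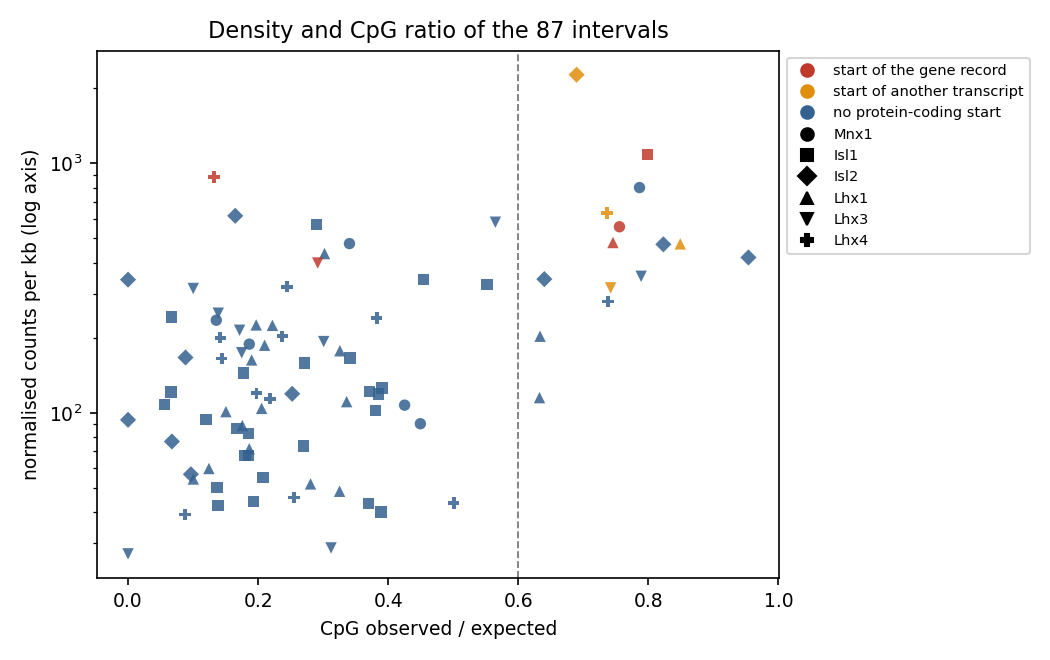
Mean normalised counts per kb (log axis) of each of the 87 intervals against its ratio of observed to expected CpG, with the shape of a point giving the gene and its colour the kind of start, and a dashed line at 0.6. The start of the Lhx4 gene record is dense at a ratio of 0.132, and 8 intervals without a start lie right of the line.

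Short motifs were counted in the 300 bases at the centre of every interval, on both strands, and no motif searched is contained in another. Where an interval was shorter than 300 bases, the window reached into sequence outside it. Both E-boxes are sites that bHLH factors such as NEUROG2 and OLIG2 can bind, TAATTA is a core read by many homeodomains, and GLI factors act at the end of the Shh pathway. CAGATG was present in 34 of 82 distal members (41.5%), against 28.9% of all distal intervals. Without intervals over any start the share was 43.6% of 78 members, against 29.2% in the table, 27.7% around the motor neuron programme genes, 20.6% around the other LIM homeodomain genes and 28.6% around the ventral progenitor factors. Lhx1 and Isl1 had it in 10 intervals each, Lhx4 in 6, Mnx1 and Isl2 in 3 each and Lhx3 in 2. No motif share was tested, more than 1 motif was searched, and intervals that share a locus are not independent. Of the other motifs, CAGCTG was found in 24.4% of distal members against 22.8%, TAATTA in 6.10% against 7.66%, and ACAATG in 17.1% against 23.2%. GACCACCCA was found in 1 distal member (1.22%) against 0.495%, and AATCAATA in 2 (2.44%) against 1.28%. A retinoic acid receptor repeat, AGGTCA repeated after a gap of 5 bases, was in none of the 82, and in 0.0764% of all distal intervals. Over gene record starts CAGCTG was in 3 of 5 members, against 16.4% of all start intervals, and no other motif was found. Over 32851 RefSeq promoter windows, CAGCTG was in 13.0%, CAGATG in 14.4%, ACAATG in 10.7%, TAATTA in 4.84%, AATCAATA in 0.718% and GACCACCCA in 0.225%. For the members such windows ran past the start, unlike the promoter bases printed above. Among the windows printed above, the Lhx4 intron element with 7 matches had 17 and 23 counts, or 39.1 ± 8.28 per kb, and the Isl1 far element with none had 570 ± 56.0. The Isl1 downstream element with 3 copies of CAGATG had 24 and 34 counts, or 55.0 ± 13.4.

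The third question was how well the libraries agreed over these regions. The squared correlation of log2 normalised counts across the 87 intervals, which are not independent replicates, was 0.975, beside 0.968 across all intervals. An exact two-sided binomial test of each interval, with Benjamini-Hochberg adjustment over all 119502, called 0 intervals (0%) at an adjusted p under 0.01, and 0 members. An unadjusted p under 0.05 was found for 10029 intervals (8.39%) and for 9 of the 87 (10.3%), a share near that of the table. The lowest member p, 0.00195, was at the start of Mnx1, where 1184 counts stood against 1038 (adjusted p = 0.286 in the exact binomial test). Among members with a mean over 100, the largest differences were at chr1:155704130-155704724 in a coding exon of Lhx4, with 107 and 134 counts and a log2 ratio of replicate 2 to replicate 1 of 0.32, at chr9:55546240-55546643 past the end of Isl2, with 186 and 153 counts and -0.28, and at chr11:84539937-84541017 upstream of Lhx1, with 264 and 221 counts and -0.26. None of the 3 passed the test, with adjusted p of 0.678, 0.639 and 0.596 in the exact binomial test.

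Summed over each gene, 3 of the 6 loci were lower in replicate 2 by more than counting error, and none was higher. By the same criterion 1611 of all 18055 gene loci with an interval (8.92%) were lower, and 555 of the 4583 loci with summed counts of at least those of Lhx3 (12.1%), while 4.38% and 8.23% were higher. The log2 ratio of replicate 2 to replicate 1 was -0.13 for Mnx1 (95% interval -0.21 to -0.05), -0.11 for Isl2 (-0.19 to -0.04) and -0.10 for Lhx1 (-0.17 to -0.03). It was 0.04 for Isl1 (-0.03 to 0.11), -0.02 for Lhx3 (-0.10 to 0.06) and -0.03 for Lhx4 (-0.09 to 0.03). These intervals cover counting error only. CpG content moved with the difference. Of the 14 members with a mean over 100 and a CpG ratio over 0.6, 12 were lower in replicate 2, with a median log2 ratio of -0.17, and 72.4% of the 11398 such intervals of the whole set were lower, with a median of -0.04. Of the 30 members with a mean over 100 and a lower CpG ratio, 14 were lower in replicate 2 and the median was 0.01, beside 45.7% of 34971 and a median of 0.02 in the table. Its part in the locus differences was not tested.

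**Figure D4:**
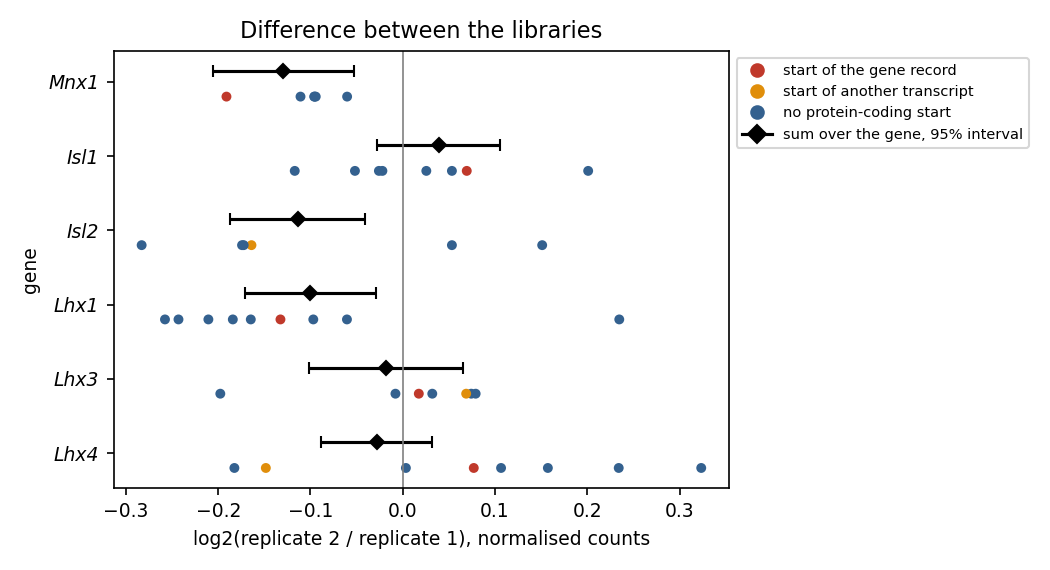
log2 ratio of normalised counts of replicate 2 to replicate 1, with circles for the members with a mean over 100 and diamonds for the sum over each gene with its 95% interval from counting error. The intervals of Mnx1, Isl2 and Lhx1 lie wholly below 0, and those of Isl1, Lhx3 and Lhx4 span it.

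The members were last set beside genes of related roles. Of 30 genes of the motor neuron programme, 27 had an interval over the start of the gene record, with a median of 749 normalised counts per kb, from 168 for Gap43, a growth cone protein, to 1497 for Lmo4, a LIM-only cofactor. All 7 other LIM homeodomain genes had one, with a median of 332, from 266 for Lhx5 to 458 for Lmx1a, a factor of the roof plate. The list of ventral progenitor factors was Olig1, Olig2, Nkx6-1, Nkx6-2, Pax6, Sox1, Sox2, Sox3 and Irx3. The study describes SOX2 as broadly expressed, so the list is not confined to ventral cells. All 9 had an interval over the start of the gene record, with a median of 862, from 187 for Pax6 to 1498 for Sox1. The 5 members with such an interval had a median of 557, between the other LIM homeodomain genes and the motor neuron programme. Isl1, Lhx4, Mnx1 and Lhx1 were above the highest of the 7 other LIM homeodomain genes, and Lhx3, at 399, was within their range, but the libraries of Lhx1 (504 and 460) overlapped those of Lmx1a (470 and 445). With any protein-coding start, the medians were 638 for the 6 members, 653 for the motor neuron programme, 351 for the other LIM homeodomain genes and 862 for the progenitor factors, Pax6 was at 613, and Lhx2, at 678 in place of 337, was above Mnx1, Lhx1 and Lhx3. The lists were chosen with earlier results known, and their order was not tested. Away from starts the members' median was 127 ± 3.26, beside 128 ± 0.633, 158 ± 2.24 and 175 ± 6.11 for the motor neuron programme, the other LIM homeodomain genes and the progenitor factors, and 124 ± 2.01 over the table.

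**Figure D5:**
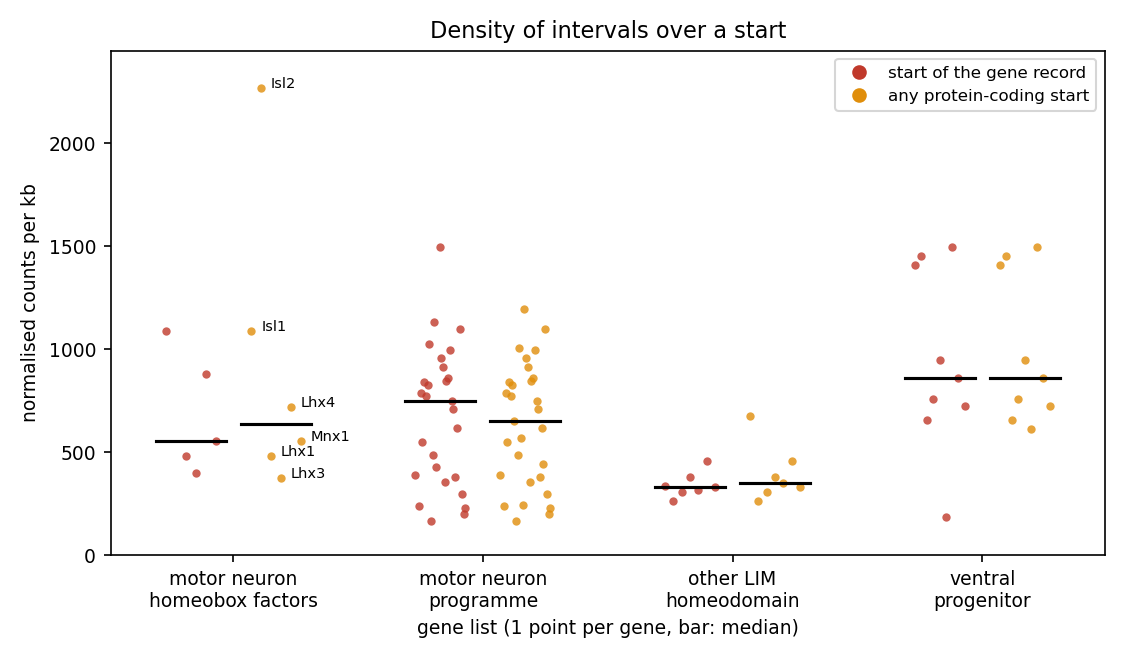
Mean normalised counts per kb over the start of the gene record (red) and over any protein-coding start (orange), 1 point per gene with bars at the medians, for the 6 motor neuron homeobox factors and 3 other gene lists. Isl2 has a point only with any start, at 2268, the highest of all genes shown.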

How the data were processed

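Live mKate2-positive cells gave 2 ATAC-seq libraries. The authors deposited raw fragment counts for consensus intervals, made with featureCounts 2.0.1 on read pairs after alignment to mm10 and MACS peak calling. A fragment could count in several intervals, with a minimum overlap fraction of 0.2. The interval set was built over 5 libraries, and 3 columns that belong to no sample of the series were not used. Weak regions are present only where a peak was called. The labels name DESeq2.

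Counts (31876165 and 31672240 in all) were divided by DESeq2 1.42.0 size factors (R 4.3.3), and alternatively by edgeR 4.0.16 TMM factors or totals. Other steps used Python 3.11.15, pandas 2.3.3, scipy 1.17.1 and pysam 0.24.0. The nearest of 21924 protein-coding genes in GENCODE M21 was found from the start of the gene record. Lists and members were chosen with earlier results of these data known. Named were each gene with its start intervals, nearest, farthest and densest distal interval, the 5 densest members, the 3 largest replicate ratios with a mean over 100, and the highest and lowest gene of each other list. Of the marker genes, 1 is not reported here. Errors given after ± are SDs over 2 libraries. Fragments carry no molecular identifiers, so intervals cover counting error only. The exact binomial test compares libraries, not conditions. It was tested on simulated data, where it recovered 189 of 200 changed intervals among 119502, with 3 false calls. The changes were 2-fold, placed only in intervals with a mean over 100, and the counts varied by counting error only. Smaller changes, changes in weaker intervals and further spread between libraries were not simulated.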

Additional observations from a re-analysis of the deposited data

How the results depend on the processing

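No paired analysis was possible because LIVE_ATAC was the only group. Of 40 alternatives, 31 left the value within the spread between replicates, or a count within 1.5 times. Those that dropped 1 of the 2 libraries could only leave a density or sum within that spread, so they say nothing about stability. With edgeR TMM factors or total counts, 44 members exceeded a mean of 100 and 0 were called different. The median density over gene record starts moved from 557 to 1170 when counts were taken per interval, and to 638 with the starts of all protein-coding transcripts, which was chosen after seeing the data and adds Isl2. The distal median moved from 140 to 127 with those starts, to 201 within 100 kb of the TSS and to 90.2 as counts per interval. Within 100 kb, 57 intervals with 17629 normalised counts were left of 87 with 19447, because 30 lay farther. The median CpG ratio of 0.245 moved to 0.249 once means below 10 were dropped, and to 0.241 in 300 bases. For the others the cause was not tested. Without replicate 1 or 2, the start median was 520 to 594, the distal median 136 to 144, the summed counts 19081 to 19812 and the members over 100 from 43 to 44. With 2 libraries, a spread is poorly known, and for members with few counts, such as the 7 and 6 of the least accessible, counting error is large.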
